A study of Mus musculus with 12 samples.

Results

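Axon guidance ligands and receptors were followed through the cell types of mouse superior mesenteric ganglia (SMGs) in single-cell RNA-seq data. Members were chosen by gene symbol alone: semaphorins of classes 3 to 7, plexins, ephrins, Eph receptors, Slits, Robo receptors, netrins, Unc5 receptors and Dcc. Of the 32286 features in the deposited matrices, 70 matched. They comprised 20 semaphorins, 12 plexin features, 8 ephrins, 14 Eph receptors, 3 Slits, 4 Robo receptors, 4 netrins and 5 netrin receptors. All but 3 were protein coding, the exceptions being the Plxna4 antisense RNAs Plxna4os1 to Plxna4os3. The level of each member in each cell type was not used to choose it, and members were kept out of the genes used for clustering.

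All mice were of the 129+Ter/SvJcl strain. The samples were the SMG of 1 wild-type (WT) mouse at 3 weeks of age, of 10 Th-MYCN+/- mice at 3 weeks (samples #1 to #10) and of 1 Th-MYCN+/- mouse at 6 weeks. Th-MYCN+/- mice carry human MYCN under the rat tyrosine hydroxylase (Th) promoter on 1 allele, so that the transgene is driven in sympathoadrenal cells and not in every cell of the ganglion, and WT mice lack it. The 6-week-old mouse was picked for a macroscopic tumor at dissection. WT and 6-week-old mice therefore had no replicate, and only the 10 samples at 3 weeks allowed tests.

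Semaphorins are secreted or membrane-bound cues that signal mainly through plexins, and class 3 semaphorins also need neuropilin co-receptors. Ephrins are membrane-bound ligands of Eph receptor tyrosine kinases and signal between touching cells, Slits repel growth cones through Robo receptors, and netrins attract through Dcc or repel through Unc5 receptors. Sympathetic neurons, their neural crest-derived precursors, Schwann cells and vessels are all known to use these families, in axon growth, cell migration and vessel patterning.

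Promoters of 4 members are shown because the results below turn on Slit2 and Epha5, and because MYCN is known to bind the E-box CACGTG, which only 4 members had in a promoter. They are the 250 bases before a transcription start in RefSeq (GRCm38.p6, the C57BL/6J reference, not the 129 genome), written 5′ to 3′ on the strand of the gene, with CACGTG in capitals. Slit2 lies at chr5:47982905-47983154 (+), Epha5 at chr5:84417383-84417632 (-), Robo2 at chr16:75447294-75447543 (-) and Sema6d at chr2:124089719-124089968 (+).
Slit2: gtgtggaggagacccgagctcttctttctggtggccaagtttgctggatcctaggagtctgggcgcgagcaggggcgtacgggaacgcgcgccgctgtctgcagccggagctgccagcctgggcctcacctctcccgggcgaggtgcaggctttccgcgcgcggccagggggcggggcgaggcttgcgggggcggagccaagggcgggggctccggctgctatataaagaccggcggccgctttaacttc
Epha5: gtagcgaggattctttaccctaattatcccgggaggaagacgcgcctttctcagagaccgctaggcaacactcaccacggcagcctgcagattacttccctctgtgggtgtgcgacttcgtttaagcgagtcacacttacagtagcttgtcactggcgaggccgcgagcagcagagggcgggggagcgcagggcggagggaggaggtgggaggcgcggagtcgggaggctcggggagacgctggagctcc
Robo2: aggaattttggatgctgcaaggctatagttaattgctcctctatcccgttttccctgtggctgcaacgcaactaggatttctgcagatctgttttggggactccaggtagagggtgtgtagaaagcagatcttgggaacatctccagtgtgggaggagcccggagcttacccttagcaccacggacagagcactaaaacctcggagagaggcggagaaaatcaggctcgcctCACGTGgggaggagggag
Sema6d: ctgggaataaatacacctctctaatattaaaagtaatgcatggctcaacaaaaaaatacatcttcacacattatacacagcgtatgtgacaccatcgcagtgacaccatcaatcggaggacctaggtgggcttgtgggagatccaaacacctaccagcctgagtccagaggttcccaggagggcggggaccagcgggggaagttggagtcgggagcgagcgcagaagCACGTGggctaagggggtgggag
RefSeq promoters were matched by symbol for 57 of the 70 members, 73 promoters in all. Both strands were searched in the 250 bases, and CACGTG occurred in 5.48% of the promoters of members (in Robo2, Sema6d, Sema4b and Epha8) and in 6.02% of all 32851 promoters. The E-box CAGCTG occurred in 16.4% of the promoters of members and in 13.0% of all promoters. The Slit2 and Epha5 windows held neither, and Robo2 and Sema6d each had 1 CACGTG. Where a gene had a promoter with CACGTG, that promoter was the one shown, so the Robo2 and Sema6d windows were picked for the motif. Robo2 also had CAGCTG, in a promoter not shown. The Robo2 window shown lies outside the gene as annotated at chr16:73891839-74411825, so it need not be its main promoter. A match describes the letters of the window and not binding.

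After cell calling and quality filters, 12022 cells remained, 618 from WT, 522 to 1839 from each 3-week-old Th-MYCN+/- mouse and 945 from the 6-week-old mouse. Libraries held 1147772 UMIs (WT), 1444554 to 6388766 UMIs (3 weeks) and 4824039 UMIs (6 weeks). Classes were named from markers that included no member: 3070 cells were neuroblast-like, 2748 ganglion-like (sympathetic neurons), 2882 Schwann-like, 528 endothelial-like, 242 macrophage-like with B cells among them, 168 myofibroblast-like, 141 fibroblast-like and 43 NKT-like, and 2200 had no name. Marker sums differed between classes. The 15 neuroblast markers summed to a median of 21820 CPM (UMIs of the gene per 1000000 UMIs of the class) in neuroblast-like and 3908 CPM in ganglion-like cells, and the 14 ganglion markers to 2541 and 36470 CPM. The transgene had 0 UMIs in WT, a median of 297 CPM (range 103 to 602) in neuroblast-like cells at 3 weeks, a median of 1.70 CPM in ganglion-like cells, and 459 CPM in neuroblast-like cells at 6 weeks.

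Sample #2 stood apart. Only 38.8% of its UMIs lay in cells, against 61.1 to 87.1% in the other libraries, and 1507 of its 1839 cells were ganglion-like, with 37 neuroblast-like and 6 Schwann-like cells. Its Schwann-like sum held 3544 UMIs, where 1 UMI amounts to 282 CPM, so that many of the lowest and highest values given below are those of sample #2. Without it, 29, 39, 33 and 30 members were called in the 4 comparisons between classes, in the order given below, against 29, 40, 34 and 31 with it. In all, 92 cell barcodes occurred in more than 1 library. The WT class with the neuroblast name had 37 cells, and its Schwann markers summed to 27130 CPM against 1262 CPM for its neuroblast markers, so it was not compared.

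Members together gave 22412 UMIs in cells, 57 of them with at least 20 UMIs. Below that were Sema3d, Sema5b, Plxna4os1, Plxna4os2, Plxna4os3, Epha1, Epha3, Epha6, Epha8, Robo1, Robo3, Ntn4 and Ntn5, of which Plxna4os2, Plxna4os3 and Ntn5 had 0. Epha5, Plxna4, Sema3b, Sema6d and Efna5 had over 1000 UMIs each. Since each UMI marks the 3′ end of 1 transcript, a CPM level is not scaled by gene length. As mean CPM over the 10 samples, 16 members reached 20 CPM in Schwann-like cells, 16 in endothelial-like, 8 in ganglion-like and 7 in neuroblast-like cells. No Slit, Robo receptor, netrin or netrin receptor was among them except Slit2 in neuroblast-like and Robo4 in endothelial-like cells. Plxna4 counted among the 16 of Schwann-like cells only through sample #2, where 1 UMI amounted to 282 CPM, against a median of 1.55 CPM.

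**Figure D1:**
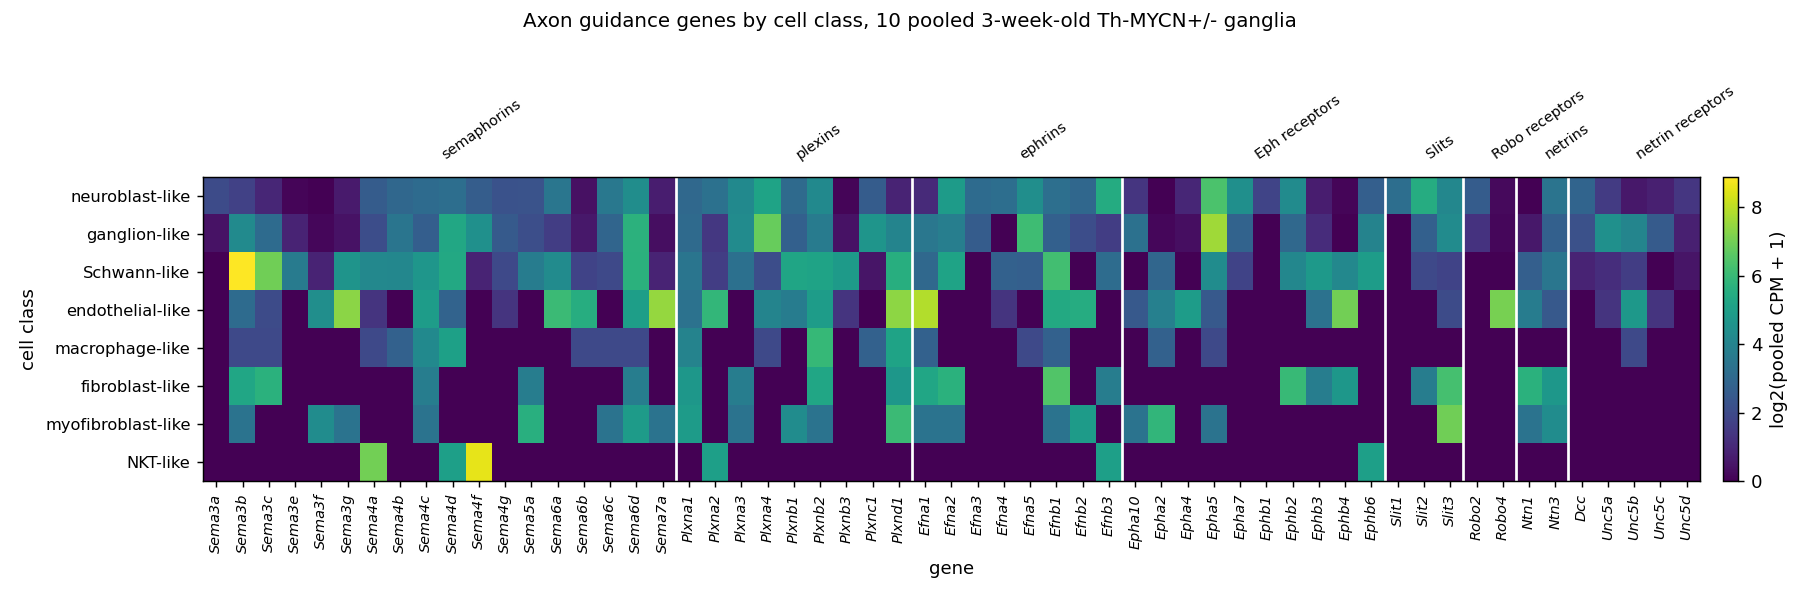
Heat map of log2(CPM + 1) for the 57 members with at least 20 UMIs (x axis, grouped by family) in 8 cell classes (y axis), from the UMIs of the 10 ganglia of 3-week-old Th-MYCN+/- mice pooled. Sema3b stands out in Schwann-like cells (475 CPM), Epha5 in ganglion-like cells (195 CPM), and Efna1, Sema7a, Plxnd1, Robo4 and Ephb4 in endothelial-like cells (127 to 233 CPM). The bright NKT-like cell of Sema4f (380 CPM) rests on 12 UMIs.

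Neuroblast-like cells at 3 weeks were first compared with ganglion-like cells of the same ganglia. They had higher Slit1 and Slit2, ephrins Efnb3 and Efna4 and receptor Plxna2, and lower Unc5a, Unc5b and Unc5c, Sema4d, Sema6d, Plxna4, Efna5 and Epha5. Counts were summed per sample and class, and tested with edgeR's quasi-likelihood test with the mouse as a block and Benjamini-Hochberg adjustment over all 12957 genes tested, at an FDR below 0.05. Of 45 members tested, 12 were higher and 17 lower. That is 64.4% called, against 61.1% of all genes, with 27.8% of all genes higher and 33.4% lower. The median log2 fold change of the members was -0.12, against -0.09 over all genes. The share called among members was thus near the background, and what differed was which members went which way.

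Slit2 is a secreted repellent. Its level in neuroblast-like cells was lowest at 0 CPM (sample #2), with a median of 42.3 and a highest value of 52.1 CPM, and in ganglion-like cells it ranged from 2.76 to 32.7 CPM with a median of 7.37. Outside sample #2, every neuroblast-like value was above every ganglion-like value. The log2 fold change was 2.38 ± 0.34 (SE, n = 10 samples, adjusted p = 1.34e-06 by edgeR's quasi-likelihood test), higher in 9 of 10 samples. Slit1, a related repellent, had 106 UMIs in neuroblast-like cells (median 6.78 CPM, seen in 9 samples) and 0 in 8261127 ganglion-like UMIs, at least 23.0-fold higher against a floor of 3 counts over the group (adjusted p = 1.74e-05). Slit3 was not called, at medians of 16.8 and 19.0 CPM. Robo2, a Slit receptor, was low in both classes, with medians of 5.50 and 1.17 CPM, and was called higher in neuroblast-like cells (log2 fold change 1.60 ± 0.60, adjusted p = 0.0239, 7 of 10 samples).

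Ephrins split by member. Efnb3, a transmembrane ephrin, ranged from 31.8 to 64.9 CPM (median 40.5) in neuroblast-like cells and from 0 to 11.9 CPM (median 0.918) in ganglion-like cells. The ranges did not overlap, and the log2 fold change was 3.89 ± 0.41 (adjusted p = 7.63e-09, 10 of 10 samples). Efna4, a GPI-anchored ephrin, again had 106 UMIs in neuroblast-like cells (median 6.12 CPM) and 0 in ganglion-like cells, at least 23.0-fold higher, with 17 of its UMIs in 1 cell of sample #4. Its Schwann-like median of 6.32 CPM was close to that of neuroblast-like cells. Efna2 was higher by 1.10 ± 0.33 (adjusted p = 0.00609, 9 of 10 samples). Efna5 went the other way, with 0 to 40.3 CPM (median 14.4) against 28.3 to 118 CPM (median 73.1) in ganglion-like cells. Its log2 fold change was -2.04 ± 0.21 (adjusted p = 5.22e-09) and it was lower in 10 of 10 samples, although the ranges overlapped. Efna1 was also lower (-3.11 ± 0.48, adjusted p = 4.65e-06, 8 of 10 samples).

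Among Eph receptors, 3 were higher and 3 lower of 6 tested. Epha5, the member with the most UMIs, is a receptor of A-type ephrins. It ranged from 58.5 to 115 CPM (median 69.7) in neuroblast-like cells and from 121 to 307 CPM (median 210) in ganglion-like cells. The ranges did not overlap, and the log2 fold change was -1.51 ± 0.18 (adjusted p = 8.64e-08, lower in 10 of 10 samples). Epha7 and Ephb2 were higher in neuroblast-like cells, by 1.55 ± 0.33 (adjusted p = 0.000224) and 1.29 ± 0.33 (adjusted p = 0.00141), each in 9 of 10 samples. Epha7 had medians of 17.4 and 5.80 CPM and Ephb2 of 17.3 and 7.27 CPM. Ephb1 had 32 UMIs in neuroblast-like and 0 in ganglion-like cells, at least 6.94-fold higher. Epha10 (-2.61 ± 0.43) and Ephb6 (-1.38 ± 0.31), both regarded as kinase-inactive, were lower, each in 8 of 10 samples.

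Of 13 semaphorins tested, 2 were higher and 6 lower in neuroblast-like cells. Sema4d, a transmembrane ligand of plexin-B1, was 3.18 to 34.2 CPM (median 9.34) against 16.6 to 87.3 CPM (median 47.1) in ganglion-like cells, a log2 fold change of -2.70 ± 0.29 (adjusted p = 1.2e-08, 9 of 10 samples). Sema6d, whose usual receptor is plexin-A1, fell in the same direction, with medians of 20.99 and 59.0 CPM and a log2 fold change of -1.79 ± 0.25 (adjusted p = 1.03e-06, 9 of 10 samples). Sema4f had medians of 4.34 and 25.6 CPM (-2.25 ± 0.30, 10 of 10 samples). Sema3b and Sema3c, secreted cues, were lower as well (-2.65 ± 0.44 and -2.94 ± 0.60). For Sema3c in ganglion-like cells, 31 of 63 UMIs lay in 1 cell of sample #10. Sema4b was just past the threshold (-0.78 ± 0.33, adjusted p = 0.0464). Sema3a (39 against 3 UMIs) and Sema6a (medians of 9.80 and 2.15 CPM, 1.76 ± 0.46) were higher.

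Of 8 plexins tested, 1 was higher and 3 lower, and of 5 netrin receptors 3 were lower, with the others not called. Plxna4, a receptor for class 3 and class 6 semaphorins, was 0 to 80.1 CPM (median 25.8) in neuroblast-like and 37.6 to 193 CPM (median 124) in ganglion-like cells, a log2 fold change of -2.25 ± 0.25 (adjusted p = 2.85e-08, lower in 10 of 10 samples). Plxnc1, the Sema7a receptor, was lower by 2.58 on the log2 scale (-2.58 ± 0.32, 10 of 10 samples), and Plxnd1, the Sema3e receptor, had medians of 0.582 and 16.3 CPM (-4.39 ± 0.56). Plxna2 was the plexin called higher (2.53 ± 0.53, adjusted p = 0.000203, medians of 6.80 and 0 CPM). Unc5a, Unc5b and Unc5c, the receptors of netrin repulsion, were lower, and Unc5d and Dcc were not called. Unc5b gave the largest fall, from 8.29 to 45.1 CPM (median 16.1) in ganglion-like cells to 0 to 1.31 CPM in neuroblast-like cells, ranges that did not overlap (-4.87 ± 0.46, adjusted p = 1.36e-09, 10 of 10 samples). Unc5a had medians of 1.69 and 18.1 CPM (-3.26 ± 0.37, adjusted p = 2.61e-08). Netrin ligands were little seen: Ntn3 was the netrin tested and was not called, at medians of 9.07 and 5.85 CPM.

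Ganglion-like cells were of unequal depth, and 1 cluster of 410 cells had a median of 14269 UMIs. Leaving that cluster out, which was decided after its depth was seen, reduced the members higher in neuroblast-like cells from 12 to 7, and Plxna2, Ephb2, Sema3a, Ephb1 and Robo2 were no longer called. Slit1, Slit2, Efnb3, Efna4, Epha7, Efna2 and Sema6a stayed called. With the filter of edgeR that was tried first, 12 members were tested, of which 4 were higher and 5 lower, so that the counts of members rest on the lower minimum of 20 UMIs set afterwards.

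**Figure D2:**
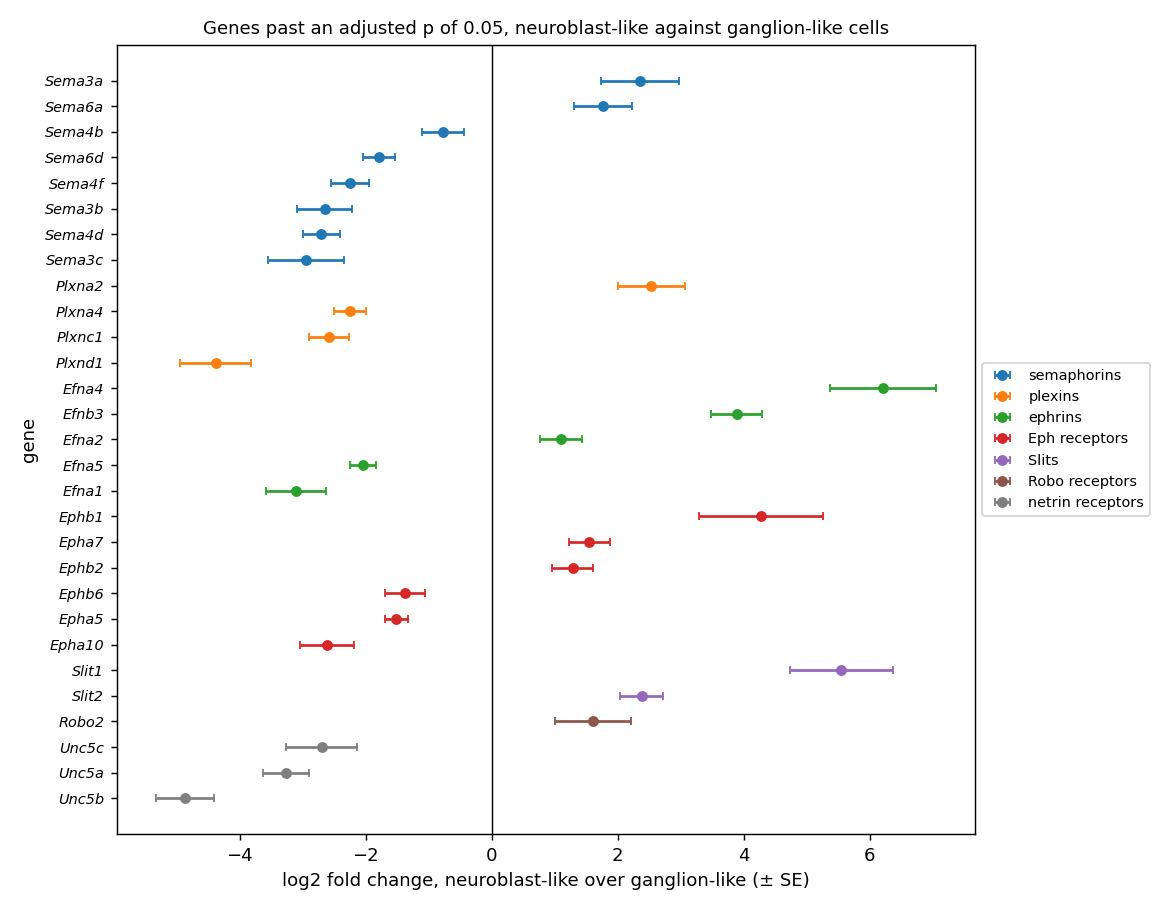
Log2 fold changes of the 29 called members, neuroblast-like against ganglion-like cells (edgeR, n = 10 samples, bars ± SE), with positive values higher in neuroblast-like cells. Members are grouped by family and sorted by size within each family. Values run from -4.87 (Unc5b) to 6.21 (Efna4), and fitted values of Efna4, Slit1 and Ephb1, which had 0 UMIs in ganglion-like cells, depend on the prior count of the fit.

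Schwann-like cells formed the other pole. Against them, neuroblast-like cells were lower in 22 and higher in 18 of 48 members tested (83.3%, against 59.4% of all 12595 genes, of which 37.7% were lower and 21.7% higher). Ganglion-like cells were lower in 21 and higher in 13 of 43 members tested (79.1%, against 59.5% of 12079 genes, 36.8% lower and 22.7% higher). The median log2 fold changes of the members were -0.25 and -0.45, against -0.32 and -0.35 over all genes. These counts depended on scaling. With library size in place of TMM normalization, the medians over all genes became 0.248 and 0.0618, shifts of 0.57 and 0.41, and the splits became 20 higher and 19 lower in neuroblast-like cells, and 17 and 17 in ganglion-like cells. DESeq2 called 6 in place of 18 and 8 in place of 13 members higher. No member called under TMM changed direction, and the comparisons share sums: the Schwann-like sums enter both, and those of the other classes also enter the comparison above.

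Among semaphorins, 11 of 15 tested were lower and 3 higher in neuroblast-like than in Schwann-like cells, and 9 of 14 were lower and 1 higher in ganglion-like cells. Sema3b, a secreted class 3 semaphorin, had a median of 460 CPM in Schwann-like cells and a highest value of 530, with 0 UMIs in sample #2. Its median was 1.85 CPM in neuroblast-like and 19.6 CPM in ganglion-like cells, both below its 56.0 CPM in empty droplets. Without sample #2, the mean level was 463 CPM in Schwann-like, 2.92 in neuroblast-like and 17.4 in ganglion-like cells. The log2 fold change was -8.06 ± 0.31 for neuroblast-like (adjusted p = 2.86e-19) and -5.09 ± 0.25 for ganglion-like cells (adjusted p = 3.06e-27), each lower in 9 of 10 samples. Sema3b is also among the genes by which the study marked its Schwann cells on these samples, so its direction is not independent evidence. Sema3c, with medians of 104, 0.846 and 4.40 CPM in Schwann-like, neuroblast-like and ganglion-like cells, was lower by -7.27 ± 0.30 and -4.47 ± 0.33. Sema3e and Sema3g followed at lower levels (medians of 10.2 and 22.5 CPM in Schwann-like cells).

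The B-class plexins, which bind class 4 semaphorins, were likewise higher in Schwann-like cells. Plxnb1 had medians of 33.7 CPM in Schwann-like, 5.63 in neuroblast-like and 8.68 in ganglion-like cells, and Plxnb2 of 31.2, 16.6 and 8.52 CPM. Plxnb3 was 0 to 59.6 CPM (median 17.4) in Schwann-like cells, while 1 UMI was found in all neuroblast-like and 3 in all ganglion-like cells. All 3 were called in both comparisons. For Plxnb2, 35 of 98 ganglion-like UMIs came from 1 cell of sample #5. Plxnd1 was also higher in Schwann-like cells (median 44.0 CPM) than in both other classes.

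Efnb1, an X-linked transmembrane ephrin, was 8.49 to 282 CPM (median 82.8) in Schwann-like cells, where the highest value was 1 UMI in sample #2. It was 0 to 13.7 CPM (median 7.80) in neuroblast-like and 0 to 12.1 CPM (median 7.19) in ganglion-like cells. The log2 fold changes were -3.78 ± 0.24 (adjusted p = 1.3e-14, 10 of 10 samples) and -4.03 ± 0.33 (adjusted p = 8.93e-17, 9 of 10 samples). The receptors Ephb3, Ephb4 and Ephb6 were higher in Schwann-like cells in both comparisons. Ephb4 had 40 UMIs in Schwann-like cells, 1 in neuroblast-like and 0 in ganglion-like cells, at least 45.7-fold higher than the ganglion-like floor. Across all families, 18 members were called higher in Schwann-like cells than in both neural classes: Sema3b, Sema3c, Sema3e, Sema3g, Sema4a, Sema4b, Sema4c, Sema5a, Sema6a, Plxnb1, Plxnb2, Plxnb3, Plxnd1, Efna2, Efnb1, Ephb3, Ephb4 and Ephb6. The share of all genes called higher in Schwann-like cells than in both was not counted, so this count has no background beside it. Under library size scaling, the calls of Efna2 and Sema6a against neuroblast-like cells and of Sema4b against ganglion-like cells were lost.

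Members higher in ganglion-like than in Schwann-like cells included receptors of the A-type ephrins and of semaphorins. In ganglion-like cells, Epha5 (2.99 ± 0.26, adjusted p = 3.25e-16, 10 of 10 samples), Efna5 (3.36 ± 0.38, adjusted p = 8.5e-12, 10 of 10), Plxnc1 (5.08 ± 0.66, 10 of 10) and Plxna4 (4.85 ± 0.41, adjusted p = 1.3e-16, 9 of 10) were higher. In sample #2, Plxna4 was at 282 CPM in Schwann-like cells, which was 1 UMI. Efna5, Epha5, Plxna4, Plxnc1 and Sema4f were called in all 3 comparisons in the order ganglion-like over neuroblast-like over Schwann-like. The share of all genes with that order was not counted. Without the deepest ganglion-like cluster, 24 calls of ganglion-like against Schwann-like cells were kept, 7 were lost and the others were not tested. In that comparison, the calls of Efna5, Epha5, Plxna4, Plxnc1 and Sema4f were kept under every setting that tested them. In neuroblast-like against Schwann-like cells, those of Efna5, Plxnc1 and Sema4f were lost under 2, 1 and 2 settings, DESeq2 among them. The order of these members over all classes therefore depended on the setting. The calls of Epha5 and Plxna4 were kept there under every setting that tested them. Epha5 had a median of 18.4 CPM in Schwann-like cells, and its level in empty droplets was 90.7 CPM, with free RNA estimated at 1.69 to 10.7% of the UMIs of Schwann-like and endothelial-like cells. With expected free RNA subtracted, Epha5 was still called in all 3 comparisons.

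Neuroblast-like cells were above both other classes in 8 members: Slit1, Slit2, Robo2, Efnb3, Epha7, Ephb1, Plxna2 and Sema3a. The share of all genes called above both, or below both, was not counted. The call of Ephb1 against Schwann-like cells (adjusted p = 0.0495) was lost under 9 of 15 alternatives, and those of Robo2, Ephb1, Plxna2 and Sema3a against ganglion-like cells were lost without the deepest cluster, as given above. DESeq2 did not keep the calls of Slit1, Robo2, Plxna2, Sema3a and Ephb1 against Schwann-like cells. It kept those of Slit2, Efnb3 and Epha7. Against Schwann-like cells, Slit2 differed by 3.28 ± 0.42 (adjusted p = 8.35e-08, 9 of 10 samples), with a Schwann-like median of 2.44 CPM. Efnb3 differed by 1.87 ± 0.34 (adjusted p = 2.6e-05, 10 of 10 samples), with a Schwann-like median of 5.86 CPM. Slit1, Robo2 and Sema3a had 0 UMIs in Schwann-like cells and were at least 6.71-fold, 4.05-fold and 2.47-fold higher. All 3 Slits were called higher in neuroblast-like than in Schwann-like cells, though the call of Slit1 was not kept by DESeq2. The opposite 8 members, Efna1, Ephb6, Plxnd1, Sema3b, Sema3c, Sema4b, Sema4d and Sema6d, were lower in neuroblast-like cells than in both other classes, though the call of Sema4b against ganglion-like cells was lost under 11 of 16 alternatives. The promoters of the 6 members higher in neuroblast-like cells that had one comprised 9 windows, 1 of them with CACGTG (Robo2). Those of the 7 members lower in neuroblast-like cells that had one comprised 12 windows, 2 of them with CACGTG (Sema4b and Sema6d).

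**Figure D3:**
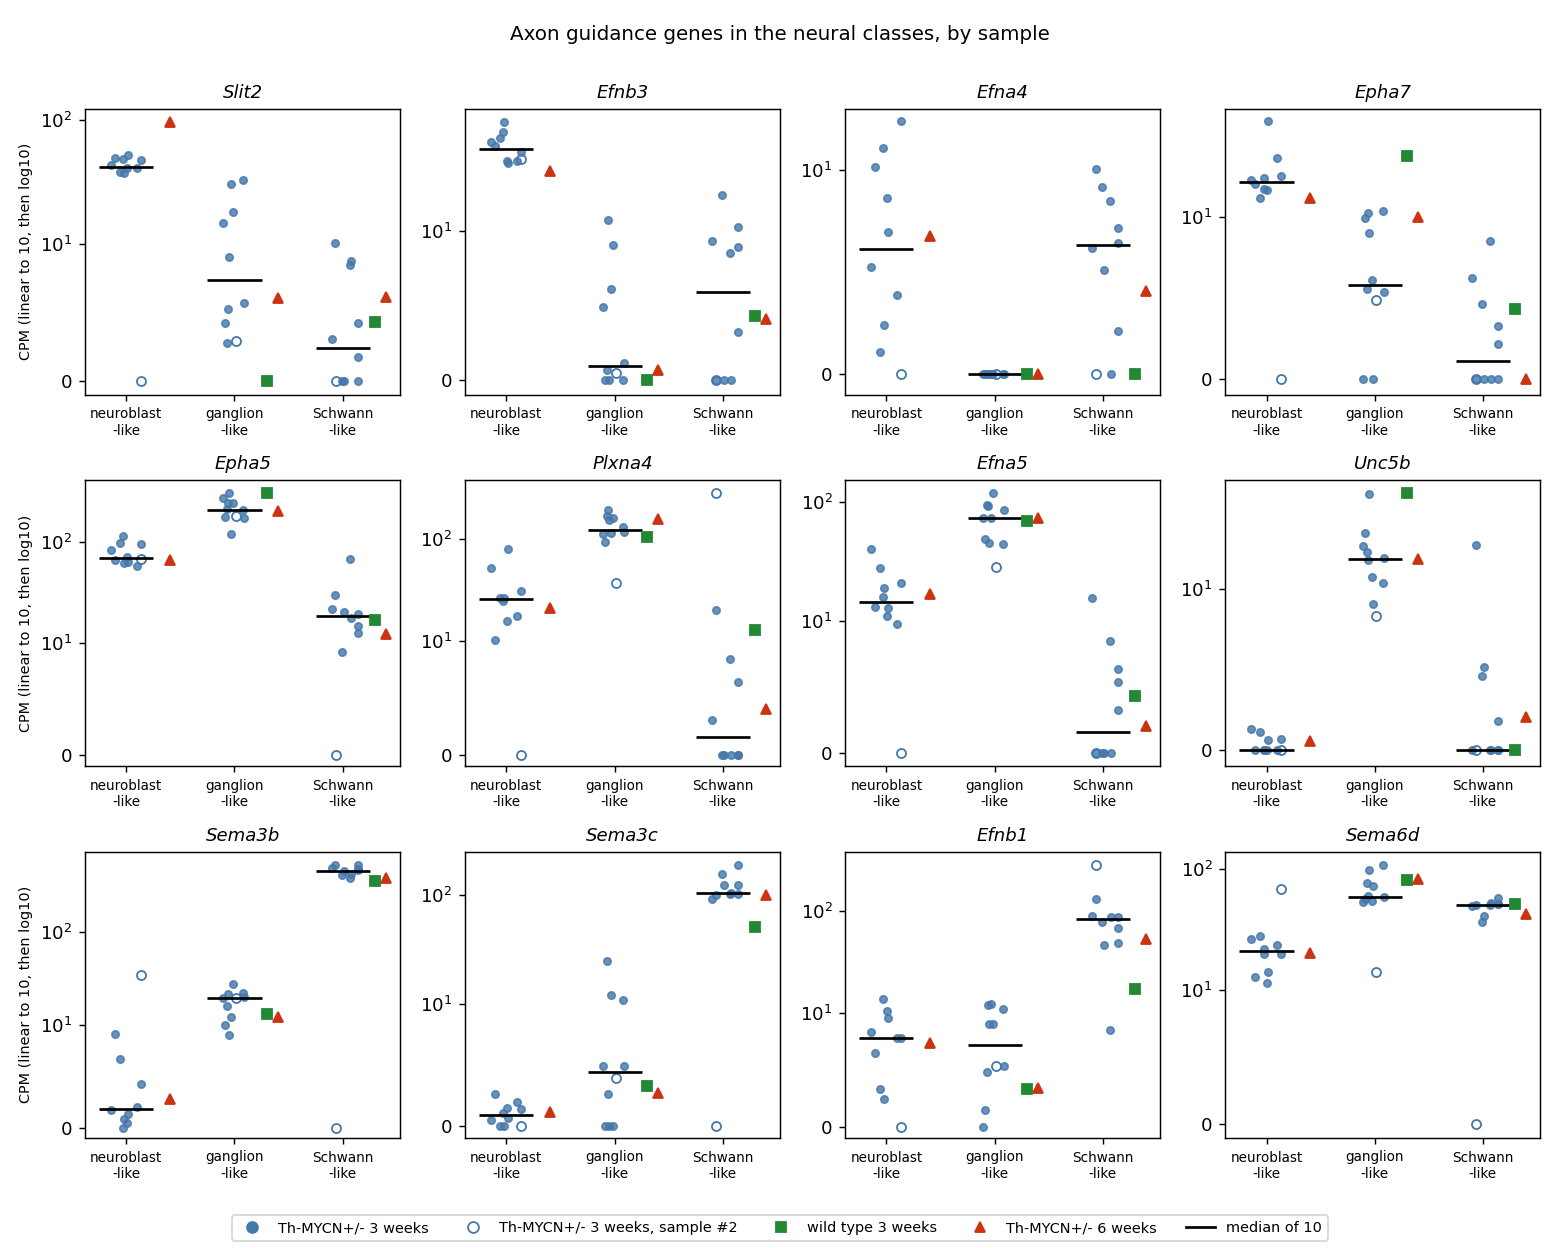
CPM of 12 members in neuroblast-like, ganglion-like and Schwann-like cells, 1 point per sample on an axis linear to 10 CPM and logarithmic above. Filled blue points are the 3-week-old Th-MYCN+/- samples, with sample #2 as an open circle, the WT sample as a green square (ganglion-like and Schwann-like cells only) and the 6-week-old sample as a red triangle. Slit2 and Efnb3 are highest in neuroblast-like cells (medians 42.3 and 40.5 CPM), Epha5 and Plxna4 in ganglion-like cells (210 and 124 CPM) and Sema3b in Schwann-like cells (460 CPM).

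Endothelial-like cells were set against the mean of the 3 neural classes, in 1 fit over 4 classes. Of 56 members tested, 17 were higher and 14 lower (55.4%, against 36.3% of all 13766 genes, 19.5% higher and 16.8% lower). Robo4, the Robo receptor of vessels, was 25.9 to 310 CPM (median 143) in endothelial-like cells and had 3 UMIs in the neuroblast-like, ganglion-like and Schwann-like cells of the 10 samples together. Its log2 fold change was 8.88 ± 0.39 (adjusted p = 8.72e-25, 10 of 10 samples). Ephb4, the receptor of ephrin-B2 and a marker of veins, ranged from 52.0 to 181 CPM (median 143), a difference of 6.93 ± 0.34 (10 of 10 samples). Efna1 ranged from 168 to 310 CPM (median 248) against neural medians of 0.558 to 8.71 CPM (5.65 ± 0.26, adjusted p = 4.69e-27, 10 of 10 samples). The study names Efna1 among its endothelial markers on these samples, so its direction is not independent.

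Among semaphorins and plexins, Sema7a, a GPI-anchored semaphorin, had a median of 203 CPM in endothelial-like cells and medians of 0 in each neural class (7.91 ± 0.35, adjusted p = 1.76e-27, 9 of 10 samples). Plxnd1, which is known for vessel patterning, was 25.9 to 373 CPM (median 128). It was above the mean of the neural classes in 10 of 10 samples (4.17 ± 0.30). That count does not compare it with each class, and its Schwann-like median of 44.0 CPM exceeded its lowest endothelial-like value. Plxna2 (median 50.7 CPM, 4.16 ± 0.37, 10 of 10), Sema6b (35.2 CPM, 8 of 10), Sema6a (63.3 CPM, 9 of 10) and Efnb2 (36.6 CPM, 7 of 10), a marker of arteries, were also higher. Sema3g, another arterial marker, had a median of 31.7 CPM and a highest value of 3345 CPM in sample #7. There 81 of the 82 UMIs came from 1 cell of 3091 UMIs, among 18 cells, and over all samples 106 UMIs were found in 22 cells. Ephb3 and Unc5b were called higher although endothelial-like cells were the higher side in 4 and 5 of 10 samples.

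The 14 lower members were Slit2, Efna2, Efna5, Efnb3, Epha5, Epha7, Ephb2, Ephb6, Plxna3, Sema3b, Sema4b, Sema4d, Sema5a and Sema6c. In all, 21 members with at least 20 UMIs in the neural classes had 0 UMIs in endothelial-like cells, where the floor of 3 counts is 4.596 CPM. Among them were Slit1, Slit2, Robo2, Dcc, Unc5d, Efna2, Efna3, Efna5, Efnb3, Epha7, Ephb1, Ephb2 and Ephb6. The others were Plxna3, Plxnc1, Sema3a, Sema3e, Sema4b, Sema4f, Sema5a and Sema6c. The share of all genes at 0 was not counted. Of the lower members, only Epha5, Sema3b and Sema4d had UMIs in endothelial-like cells. Sema5a had neural medians of 2.97, 2.74 and 10.2 CPM, on both sides of the floor, so its 0 cannot settle its direction. It was not the only such member: the neural medians of Slit2 and Efnb3, for example, also lay on both sides of the floor. For these, a 0 does not show a lower level than in each neural class. With DESeq2, 22 calls of this comparison were kept and 9 lost. Epha5 was lower by -3.87 ± 0.55 (adjusted p = 4.25e-08, 10 of 10 samples). The median log2 fold change of the members was -1.13 as fitted, against -0.18 for all genes, but -0.10 with members at 0 in endothelial-like cells placed at their bound.

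**Figure D4:**
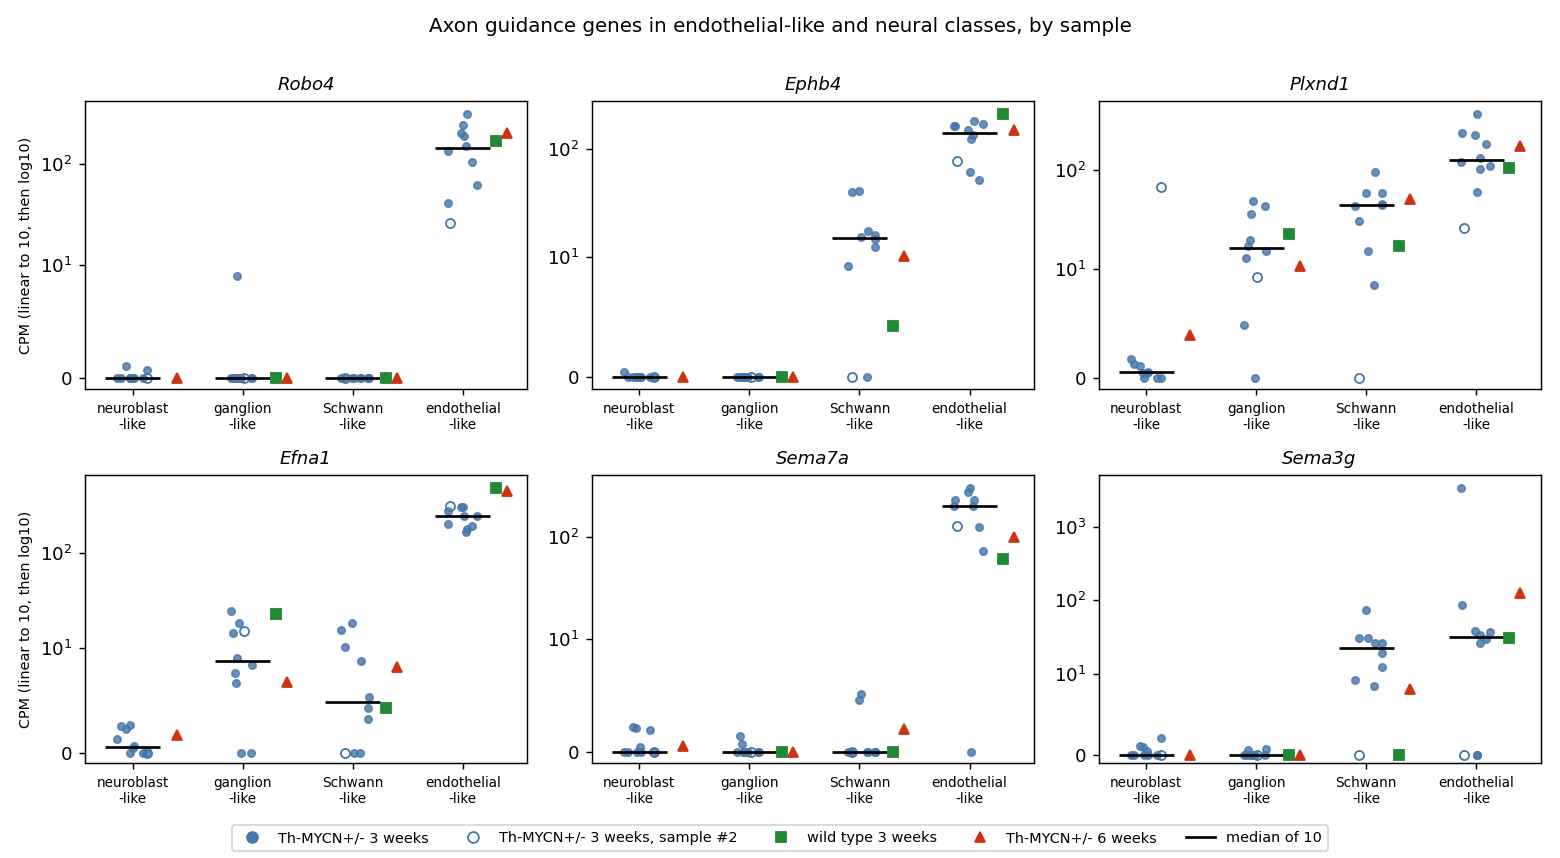
CPM of Robo4, Ephb4, Plxnd1, Efna1, Sema7a and Sema3g in neuroblast-like, ganglion-like, Schwann-like and endothelial-like cells, 1 point per sample on an axis linear to 10 CPM and logarithmic above (symbols as in the plot of neural members). Endothelial-like values of Efna1 lie between 168 and 310 CPM in the 3-week-old Th-MYCN+/- samples, and the Sema3g point at 3345 CPM is sample #7.

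The smaller classes held few UMIs of members. In macrophage-like cells, Plxnb2 had 21 UMIs (median 68.4 CPM, 9 of 10 samples). In myofibroblast-like cells, a class that includes pericytes by its markers, Slit3 had 13 UMIs in 8 of 9 samples (median 141 CPM), and Epha2 had 6 UMIs. In fibroblast-like cells, Efnb1 had 7 UMIs (median 68.4 CPM) and Slit3 had 6. Of the 12 Sema4f UMIs in NKT-like cells, 11 were in 1 cell of sample #7. At these counts, levels in the smaller classes were not compared.

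Within neuroblast-like cells, 3 clusters were told apart, 1 led by cell division genes, 1 led by Rem2 and 1 led by Cartpt and Nhlh2. The transgene was among the leading genes of the Rem2-led cluster but not the first of them, and transgene levels were not compared between clusters. The counts of samples that follow are descriptions without a test. In 9 samples with enough cells, Plxnb2 was higher in the dividing cluster than in the Rem2-led cluster in 9 of 9 (medians of 20.4 and 13.7 CPM), and Efnb3 was lower in 8 of 9 (31.3 and 50.6 CPM). Slit2 (44.0 and 46.3 CPM) and Epha5 (76.5 and 78.1 CPM) were close, with the dividing cluster higher in 4 of 9 samples each. In the Cartpt-led cluster, Slit2 was higher than in the Rem2-led cluster in 7 of 9 samples (68.1 CPM), Epha5 lower in 7 (38.6 CPM) and Slit3 lower in 8 (0 CPM). In Schwann-like cells, the cluster led by stress genes such as Fos and Hspa1a had less Sema3b than the largest cluster in 8 of 9 samples (415 and 487 CPM). In ganglion-like cells, the deepest cluster had more Unc5a than the largest cluster in 5 of 5 samples (23.2 and 8.78 CPM), with depths that differed.

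Genes that work with these families were counted from fixed lists of partners. Of 8 semaphorin co-receptors tested in neuroblast-like against ganglion-like cells, 1 was higher and 6 lower. Nrp1, the neuropilin preferred by Sema3a, was lower (-3.08 ± 0.24, 10 of 10 samples) and Nrp2 higher (1.90 ± 0.30, 9 of 10). Netrin and RGM partners gave 2 higher and 3 lower of 7, SLIT and ROBO partners 5 higher and 5 lower of 11, and growth cone transducers 10 higher and 17 lower of 36. Among the largest changes were falls in the actin-binding Ablim1 (-4.71) and Ablim3 (-4.87) and in the GTPase Rras (-4.60), and a rise in Nell1 (4.08), a Robo ligand.

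In neuroblast-like against Schwann-like cells, 0 of 7 co-receptors were higher and 4 lower, and netrin partners gave 2 and 3 of 7, SLIT partners 3 and 6 of 11 and transducers 8 and 16 of 35. Sdc4 (-7.71), Ptprz1 (-7.24), Rras (-5.74), Chl1 (-4.96) and Dscam (4.97), a netrin receptor, changed most. In ganglion-like against Schwann-like cells, the counts were 3 higher and 4 lower of 8, 0 and 1 of 4, 1 and 7 of 10 and 16 and 18 of 36, with Flrt3 (-5.94), Ptprz1 (-5.79), Dock1 (-5.54) and Sdc4 (-5.34) among the largest changes. In endothelial-like cells they were 2 and 3 of 9, 1 and 3 of 7, 2 and 3 of 11 and 14 and 9 of 37, with Kdr (10.5), the VEGF receptor that also marks endothelium, Dpysl4 (-7.50), Pak3 (-7.34), Chl1 (-7.25) and Srgap3 (-6.52) leading. These shares stand beside 61.1, 59.4, 59.5 and 36.3% of all genes called.

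The WT ganglion was compared with the 10 Th-MYCN+/- ganglia of the same age within ganglion-like, Schwann-like and endothelial-like cells. With 1 mouse there was no test: a member was called outside when the exact 95% Poisson interval of its WT level, which covers counting error only, lay wholly outside the range of the 10 samples and the level was at least 2-fold from their median. Of 36, 26 and 14 members with at least 20 UMIs in these classes, 1, 0 and 0 lay above and none below. Among all genes, 1.07%, 1.25% and 1.51% lay above and 0.126%, 0.0228% and 0.137% below. A gene at 0 CPM in any of the 10 samples could not lie below by this rule. This held for most of the members in each class, so that none below carries no information on them. The 1 member above was Epha7 in ganglion-like cells, with 8 UMIs and 26.1 CPM (interval 11.3 to 51.5) against 0 to 10.9 CPM (median 5.80). With cells of at least 500 UMIs, with stricter filters or with the highest doublet scores removed, it was no longer outside.

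Most other members of the WT ganglion lay within the range. Epha5 was at 307 CPM (94 UMIs, interval 248 to 376) in ganglion-like cells, at the top of the 121 to 307 CPM of the 10 samples. Unc5b was at 45.7 CPM (interval 24.99 to 76.7), beside a highest value of 45.1 CPM. In endothelial-like cells, Efna1 was at 484 CPM (32 UMIs, interval 331 to 684), above the range of 168 to 310 CPM but 1.956-fold from the median. In Schwann-like cells, Sema3c was at 51.3 CPM (12 UMIs, interval 26.5 to 89.7), and without sample #2, at 0 CPM, the 3-week-old Th-MYCN+/- samples ranged from 92.8 to 190 CPM. Slit2 had 0 UMIs in WT ganglion-like cells, where the interval reaches 12.1 CPM and the 3-week-old Th-MYCN+/- median was 7.37 CPM.

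The 6-week-old ganglion with a tumor differed in 1 member by the same measure. In its 251 neuroblast-like cells, Slit2 was at 97.9 CPM (174 UMIs, interval 83.9 to 114), against 0 to 52.1 CPM (median 42.3) in the 10 samples at 3 weeks, or 37.3 to 52.1 CPM without sample #2. That was 2.32-fold the median. Of 40, 37, 27 and 15 members with at least 20 UMIs in neuroblast-like, ganglion-like, Schwann-like and endothelial-like cells, 1, 0, 0 and 0 lay above and none below, against 0.807%, 0.378%, 0.707% and 0.706% of all genes above and 0.261%, 0.211%, 0.0221% and 0.0202% below. As in the WT comparison, most of these members could not lie below, since at least 1 of the 10 samples was at 0 CPM. When cells under 500 genes or over 5% mitochondrial UMIs were left out, Slit2 was no longer outside.

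The intervals of the other 39 neuroblast-like members at 6 weeks reached into the 3-week ranges, which does not show that their levels were alike. Epha5 was at 66.4 CPM (interval 55.0 to 79.5, median at 3 weeks 69.7), Sema6d at 20.3 CPM and Plxna4 at 21.4 CPM. Efnb3 was at 27.6 CPM (49 UMIs, interval 20.4 to 36.5), below the lowest of the 10 samples (31.8 CPM) but with an interval that reached into their range. Slit1 had 14 UMIs (7.88 CPM) and Robo2 13 UMIs (7.32 CPM), against medians of 6.78 and 5.50 CPM. Some members with few UMIs lay further from the 3-week median. Plxna2 had 3 UMIs (1.69 CPM, median 6.80), Sema4c 4 UMIs (2.25 CPM, median 8.06) and Sema3a 1 UMI (0.563 CPM, median 2.71). Efnb2 had 21 UMIs (11.8 CPM, median 5.22), and Unc5a had 7 UMIs (3.94 CPM, median 1.69), just above its highest 3-week value of 3.89 CPM. In ganglion-like cells at 6 weeks Slit2 was at 6.03 CPM, near the 3-week median of 7.37 CPM. Age, tumor and mouse cannot be told apart in this sample.

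**Figure D5:**
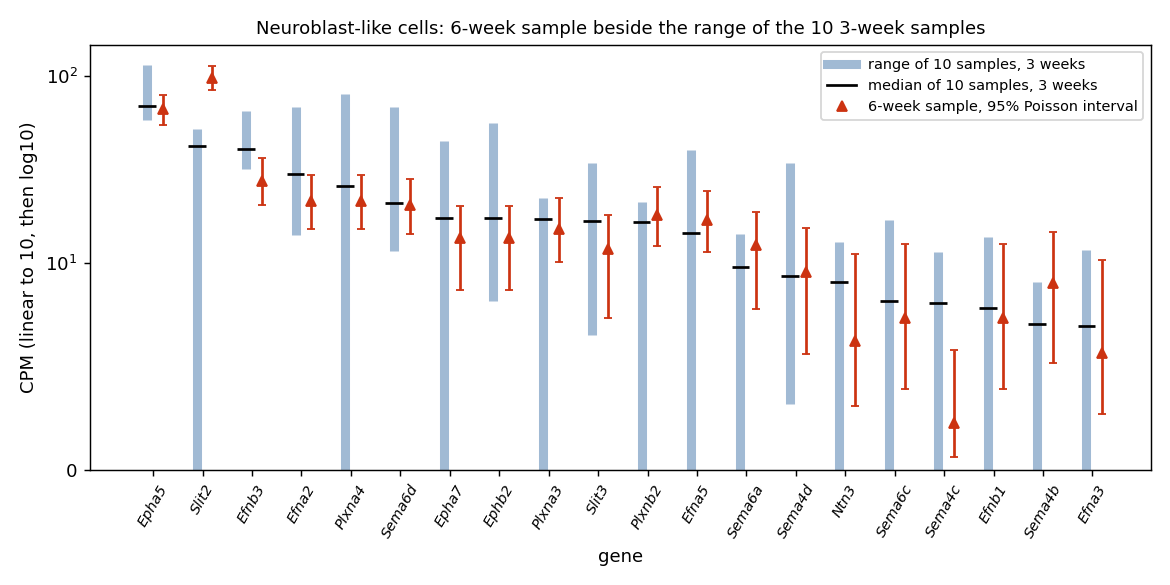
CPM of 20 members in neuroblast-like cells, with the range and median of the 10 samples at 3 weeks and the 6-week-old sample with its 95% Poisson interval. Slit2 at 97.9 CPM lies above the 3-week range of 0 to 52.1 CPM, and the interval of every other member plotted reaches into its range.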

How the data were processed

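SMGs were dissociated to whole-ganglion suspensions and sequenced with the 10x Chromium 3′ assay, 12 libraries in all. The deposited values are raw UMI counts per gene and barcode, which the authors made with Cell Ranger 3.0.2 and the mm10 build. Human MYCN is 1 of the features. Members and gene lists were chosen with earlier results of these data known.

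Cells were called with the EmptyDrops method (100 UMIs, FDR 0.01) and kept with at least 200 genes, at most 10% mitochondrial and at most 60% ribosomal UMIs. Scrublet marked 0.416% of cells. Whether it found the doublets was not tested, and doublets were not removed. Clusters came from Seurat 5.3.0 with sctransform 0.4.2 (2000 variable genes without members, 30 components, resolution 0.5), and names from fixed markers (at least 3 passing a fold of 1.5). Raw counts were summed per sample and class (at least 5 cells). These counts were tested with edgeR 4.0.16 (quasi-likelihood, TMM factors from genes with at least 1000 UMIs, genes with at least 20 UMIs in a comparison, Benjamini-Hochberg FDR 0.05). The filter was changed after results were seen: filterByExpr of edgeR was run first and left only 12, 6, 3 and 8 members to test in the 4 comparisons, so the minimum was set to 20 UMIs, and filterByExpr became an alternative. Limiting the TMM factors to genes with at least 1000 UMIs was also chosen afterwards, when factors over all genes spread widely and gave false calls on simulated counts. The mouse was a block, since classes of 1 sample come from the same library. Correlations of their deviations were 0.0237 to 0.222 for neuroblast-like and ganglion-like, -0.00756 to 0.109 for neuroblast-like and Schwann-like and -0.0629 to 0.103 for ganglion-like and Schwann-like sums. Directions per sample were counted on log2(CPM + 1) scaled by library size. The SE of a fold change was not fitted but back-calculated, as the absolute log2 fold change over the square root of the F statistic. Class sums held 3544 to 2620461 UMIs. P-values measure the spread between 10 mice, and intervals and floors cover counting error only.

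Named genes were members with a mean of at least 20 CPM in a class, up to 20 called members per comparison by fold change, and the 5 partner genes with the largest changes, of which some are not reported here. Members named beyond that, such as other called members, were named after their values were seen. On simulated counts with 200 genes changed by 1.5 (log2), 134 of 192 tested were recovered in neuroblast-like against ganglion-like, 123 of 189 in neuroblast-like against Schwann-like, 113 of 189 in ganglion-like against Schwann-like and 68 of 199 in endothelial-like against neural sums. Alternatives covered normalization, filters, DESeq2 1.42.0, cell filters, doublets, free RNA, clustering and leaving out sample #2.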

Additional observations from a re-analysis of the deposited data

Results flagged for a closer look

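In 14 of 47 pairs of member and class, the highest or lowest of the samples stood apart from the other values by Dixon's criterion, which chance meets in about 1 of 20 groups. Sample #2 accounted for 8 of them. In its 6 Schwann-like cells, Sema3b, Sema3c and Sema6d were at 0 CPM, against medians of 460, 104 and 50.7 CPM. Plxna4, Sema4d and Efnb1 were at 282.2 CPM there, against medians of 1.55, 26.5 and 82.8 CPM, each from 1 UMI. In its neuroblast-like cells, Slit2 was at 0 CPM (median 42.3) and Sema6d at 68.3 CPM (median 20.99).

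Elsewhere, Sema3g in endothelial-like cells was at 3345 CPM in sample #7 (median 31.7), and in Schwann-like cells at 73.3 CPM in sample #3 (median 22.5). Epha5 in Schwann-like cells was at 67.9 CPM in sample #6 (median 18.4), the sample with the highest estimated share of free RNA (10.7%), whose part in this value was not tested. Plxnc1 in ganglion-like cells was at 54.6 CPM and Epha4 in endothelial-like cells at 122.0 CPM in sample #1 (medians 24.9 and 22.2). Sema6a in endothelial-like cells was at 248.5 CPM in sample #8 (median 63.3).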

How the results depend on the processing

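Direction held in every pair of called member and setting in which the member was tested, and the threshold was missed in 98 of them and kept in 1957. Called members that a setting no longer tested are in neither count. Under filterByExpr, only 9, 6, 2 and 6 called members of the 4 comparisons entered, all kept, so these counts understate its effect. The filter on low counts changed the counts most. With filterByExpr of edgeR, which was run before the 20-UMI minimum replaced it, 4 members were higher and 5 lower (9 in all, of 12 tested) in neuroblast-like against ganglion-like cells. It gave 2 and 4 (6 of 6 tested) in neuroblast-like against Schwann-like cells, 2 and 0 (2 of 3) in ganglion-like against Schwann-like cells, and 4 and 2 (6 of 8) in endothelial-like cells. With sample #2 left out as well, it gave 5 and 5 (10 of 13), 3 and 5 (8 of 8), 2 and 2 (4 of 5), and 4 and 2 (6 of 9). Fewer members were tested under this filter. With DESeq2, 6 members in place of 18 were higher in neuroblast-like and 8 in place of 13 in ganglion-like than in Schwann-like cells, and 5 in place of 14 were lower in endothelial-like cells. The cause was not tested. TMM over all genes tested gave 28, 39, 36 and 33 members called. Without the deepest ganglion-like cluster, 7 members were higher in neuroblast-like than in ganglion-like cells. In ganglion-like against Schwann-like cells, leaving that cluster out kept 24 calls and lost 7, and the other called members were no longer tested. These settings, other than DESeq2, were chosen after seeing the data.

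With no replicate block, so that the pairing of classes by mouse was not used, 29, 40, 33 and 31 members were called (12 higher and 17 lower, 18 and 22, 12 and 21, 17 and 14). Sema6c and Plxna3 lost a call each, against Schwann-like cells. Without sample #2, Ephb1, Ntn3 and Sema6c lost a call each, and 2 members of WT lay outside the range. In WT, 2 members also lay outside at 1.5-fold from the median, and 0 with at least 500 UMIs per cell, without cells under 500 genes or over 5% mitochondrial UMIs, or with the 5% highest doublet scores removed. At 6 weeks, 0 lay outside under the same limits on genes and mitochondrial UMIs. Depth limits the range comparisons, since 1 UMI in the WT sums amounted to 3.27 CPM in ganglion-like and 15.1 CPM in endothelial-like cells.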

Other observations

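Single cells carried a large share of some members' UMIs. In neuroblast-like cells, 96 of 1044 Epha5 UMIs lay in 1 cell of sample #8, 65 of 444 Plxna4 UMIs in 1 cell of sample #9 and 37 of 236 Ephb2 UMIs in 1 cell of sample #5. In Schwann-like cells, 44 of 96 Sema4d UMIs lay in 1 cell of sample #5 that had 1966 UMIs in all. The cells without a name included a cluster of 2173 shallow cells (median 497 UMIs), which held Slit2 at 39.5 CPM, Epha5 at 91.3 CPM and Efnb3 at 21.7 CPM in the 10 samples at 3 weeks pooled.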
